A study of Mus musculus with 8 samples.

Results

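10 genes of the immunoglobulin superfamily that encode cell adhesion molecules are described here across a mouse thymic epithelial line with and without an edited Gtf2i gene. They are Alcam, Mpzl2, Icam1, Vcam1, Mcam, Bcam, Cadm1, Cadm4, Nectin1 and Nectin2. They are 10 of the 22911 genes with a symbol on the array, measured by 14 probes that were matched through their transcript accession. The genes were chosen by family and with their measured log2 differences between the edited clones and the control already known, so those differences are given as a description, without a test. Expression was measured on 8 one-colour arrays of TEC71, an immortalized line derived from the medullary epithelium of the mouse thymus. Clone 1, on 3 arrays, and clone 3, on 2, are knock-ins that carry T1211A, a mutation in Gtf2i that the labels name, and the control, on 3 arrays, has the knock-in control genotype. The control is described in the labels as cells given a Cas9 nickase with one guide RNA. Every clone 1 array comes from a single clone, and so does every clone 3 array, so a difference from the control cannot be told apart from a trait of the clone. Whether the arrays of a group come from separate cultures, and whether the control is a clone or a pool, is not stated by the labels, and p-values measure only the spread between these arrays.

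Adhesion molecules of this superfamily carry extracellular immunoglobulin domains that bind the same molecule or a partner on a neighbouring cell, and a short cytoplasmic tail that reaches the actin cytoskeleton through adaptor proteins. In the thymus, epithelial cells hold developing T cells and each other through such contacts. Alcam binds Cd6 on T cells, Icam1 and Vcam1 bind leukocyte integrins, Mpzl2 was first described as an adhesion molecule of thymic epithelium, and nectins and Cadm proteins join epithelial cells to each other.

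Promoter windows of RefSeq, reaching 250 bases upstream of the annotated start on GRCm38.p6, were matched for 6 of the 10 genes, namely Alcam, Icam1, Mcam, Bcam, Cadm4 and Nectin2. 3 are shown: Alcam and Cadm4, which were higher in both clones, and Icam1, which has the best-known cytokine-responsive promoter of the family and was not higher. Capitals mark matches to the GC box GGGCGG on either strand, and each window is written 5′ to 3′ on the strand of its gene.
Alcam, chr16:52453082-52453331, minus strand: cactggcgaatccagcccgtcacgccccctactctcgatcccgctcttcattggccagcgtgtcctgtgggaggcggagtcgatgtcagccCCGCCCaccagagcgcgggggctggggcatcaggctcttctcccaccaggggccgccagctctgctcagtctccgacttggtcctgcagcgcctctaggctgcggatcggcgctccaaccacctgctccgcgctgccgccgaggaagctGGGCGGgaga
Cadm4, chr7:24481773-24482022, plus strand: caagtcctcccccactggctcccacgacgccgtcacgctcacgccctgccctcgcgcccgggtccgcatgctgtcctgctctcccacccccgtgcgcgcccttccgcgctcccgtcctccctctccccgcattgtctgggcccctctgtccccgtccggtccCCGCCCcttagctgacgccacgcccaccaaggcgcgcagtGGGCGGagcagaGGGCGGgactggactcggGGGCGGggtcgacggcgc
Icam1, chr9:21015690-21015939, plus strand: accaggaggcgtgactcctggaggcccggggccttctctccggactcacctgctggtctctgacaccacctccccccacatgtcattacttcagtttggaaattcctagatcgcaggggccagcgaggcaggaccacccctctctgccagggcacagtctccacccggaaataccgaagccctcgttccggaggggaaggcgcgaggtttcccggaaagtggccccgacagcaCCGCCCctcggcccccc
The GC box was present in 5 of the 6 windows, all but that of Bcam, against 32.7% of the 32851 RefSeq windows of the same length. Alcam had matches ending 154 and 5 bases before the start, Icam1 had 1 match ending 12 bases before it, and Cadm4 had 4. The windows held 69.2% G and C in Alcam, 75.2% in Cadm4 and 65.2% in Icam1, against a median of 52.4% over all windows. The TATA box TATAAA, the E-box CACGTG, the AP-1 motif TGANTCA and the kappa B consensus, each searched on both strands, had no match in these 6 windows. Over all windows, 12.4% held the TATA box, 6.02% the E-box, 6.75% the AP-1 motif and 7.25% the kappa B consensus. No match says only that these letters are not in this stretch. Only the strict kappa B consensus was searched, and variant kappa B sites, such as the one known in the human ICAM1 promoter, were not. The Icam1 window shown holds tggaaattcc, a stretch of this variant kind that the strict consensus does not match. Its use was not tested.

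Each array gave a signal well above background for 55.3% to 59.3% of 56605 distinct probes, and no spot was saturated. Levels below are processed signals divided by the 75th percentile of their array and put on the log2 scale, and the number of arrays limits their precision. Gtf2i averaged 3.95 ± 0.07 over the clone 1 arrays and 3.82 ± 0.03 over the clone 3 arrays, against 4.41 ± 0.05 over the controls (SD; n = 3, 2 and 3). All 8 arrays came from 1 slide and 1 scan time. The titles in the labels end in array numbers but do not name a row. The number before the last is read here as the array row. By this reading all controls and clone 1 array 1 were in row 1 and the other arrays in row 2. Over all features, correlations within a group were 0.993 to 0.995, and knock-in with control arrays at 0.964 to 0.970. The first clone 1 array had a brightest spike-in signal of 2797, against 17164 to 30390 on the other arrays. Of 15 markers of thymic epithelium, 12 were above background on every array, including Epcam, Krt5, Krt8 and Foxn1. Psmb11, the proteasome subunit of the cortical lineage, and Pax1 were above background on none, and Aire, a regulator of the medullary lineage, was above background on 2 of 3 clone 1, 0 of 2 clone 3 and 1 of 3 control arrays. Levels of the epithelial markers were not all alike between groups. Epcam averaged 1.52 in clone 1 and 1.61 in clone 3, against 2.62 in the control. In the same order Krt5 averaged 5.54, 5.73 and 6.86, and Trp63 1.41, 1.07 and 2.07. Cldn4 averaged 3.35, 3.01 and 1.84, and Krt8 6.41, 6.38 and 6.21. The linear signal of the list summed to 350 to 400 in clone 1 and 368 to 412 in clone 3. In the control it was 395 to 512, in units of the 75th percentile.

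Of the 10 genes, 4 stood well above the control in both knock-in clones. On the log2 scale Mpzl2 was higher by 5.05 in clone 1 and 5.01 in clone 3, and Alcam by 4.52 in clone 1 and 4.44 in clone 3. Cadm1 was higher by 2.35 in clone 1 and 2.36 in clone 3, and Cadm4 by 1.21 in clone 1 and 1.20 in clone 3. Vcam1 was lower, at −1.07 in clone 1 and −1.18 in clone 3. Bcam and Nectin2 differed by smaller amounts, and Mcam, Nectin1 and Icam1 did not pass the threshold in either clone. In the fit across 25353 features (limma, adjusted p under 0.05), 7 of the 10 genes passed in clone 1 (6 higher, 1 lower) beside 31.2% of all features (14.6% higher, 16.6% lower). In clone 3, 5 passed (4 higher, 1 lower) beside 30.2% of all features (13.2% higher, 17% lower). In both clones with the same sign, 5 passed (4 higher, 1 lower) beside 23.5% of all features (11.3% higher, 12.2% lower). Because the genes were chosen with these contrasts known, nothing is read from the counts. Where one of the 10 genes is said to pass, or to lose a call, this describes the fit and is no test of that gene. The median difference of the 10 genes was 0.57 in clone 1 and 0.32 in clone 3, against −0.05 and −0.04 over all features. Both contrasts share the 3 control arrays, so their agreement is not independent.

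**Figure D1:**
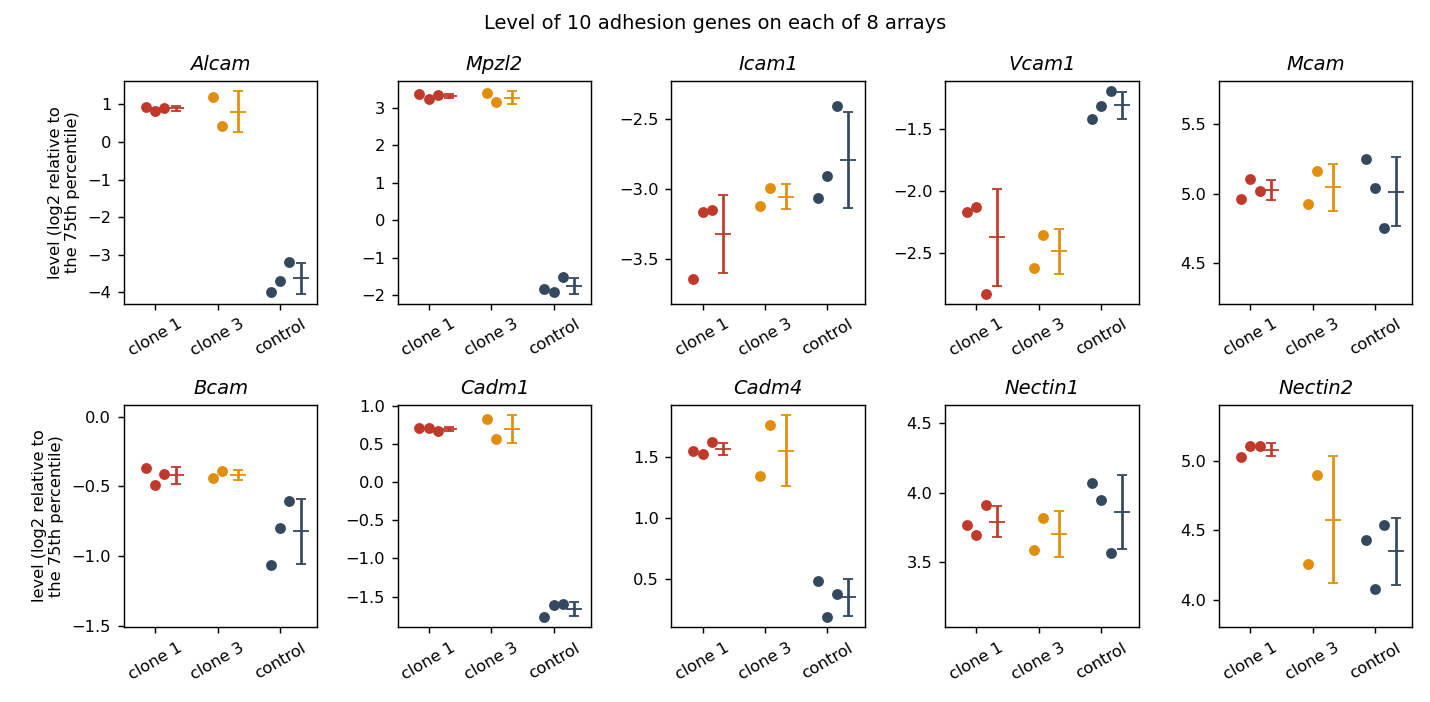
Level of each of the 10 genes on each of 8 arrays, as log2 processed signal over the array's 75th percentile, with a separate vertical range in each panel; points are arrays, and the bar beside them is the mean ± SD of clone 1 (3 arrays), clone 3 (2 arrays) and control (3 arrays). For Mpzl2 all 5 knock-in arrays lie between 3.15 and 3.39 and the controls between −1.90 and −1.51, while for Mcam the groups overlap.

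Alcam, the ligand of Cd6, had levels of 0.94, 0.83 and 0.92 on the clone 1 arrays and 1.20 and 0.43 on the clone 3 arrays, against −3.98, −3.71 and −3.18 on the control arrays. Every knock-in array was above every control array, and the clone 3 arrays were further apart than the clone 1 arrays. In raw processed signal the same probe read 611, 499 and 690 units in clone 1 and 734 and 381 units in clone 3, against 17.0, 28.8 and 31.6 units in the control. The difference from the control was 4.52 ± 0.24 (SE) in clone 1, 22.9-fold, and 4.44 ± 0.27 (SE) in clone 3, 21.6-fold. In order of size among the higher features it ranked 40 in clone 1 and 47 in clone 3 of the 25353 features. The control signals were low, so the fold depends on how background is handled. With normexp background correction, which adds an offset, the difference was 2.86 in clone 1 and 2.72 in clone 3. A dimmer probe of Alcam was above background on every knock-in array and on no control array, which bounds its difference at 5.29-fold or more in clone 1 and 6.49-fold or more in clone 3. Such bounds set each control array at no less than the lowest signal called well above background on it.

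Mpzl2 encodes a small homophilic adhesion molecule of epithelia. Its levels were 3.35, 3.24 and 3.33 in clone 1 and 3.39 and 3.15 in clone 3, against −1.82, −1.90 and −1.51 in the control. The knock-in arrays formed a narrow band far above the controls, and neither clone stood apart from the other. In processed signal the probe read 2640 to 3676 units in clone 1 and 2509 and 3350 units in clone 3, against 75.8 to 101 units in the control. The difference from the control was 5.05 ± 0.13 (SE) in clone 1, 33.1-fold, and 5.01 ± 0.15 (SE) in clone 3, 32.2-fold. It was the largest difference among the 10 genes in both clones and ranked 24 in clone 1 and 25 in clone 3 among all higher features. Mpzl2 has 1 probe on the array.

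Icam1 encodes the ligand of the integrin LFA-1 and is a classical target of inflammatory cytokines. Its levels were −3.64, −3.17 and −3.15 in clone 1 and −3.12 and −2.99 in clone 3, against −3.07, −2.90 and −2.40 in the control. The clone 1 arrays all lay below the controls, whereas one clone 3 array fell among them. The difference was −0.53 ± 0.20 (SE) in clone 1 and −0.27 ± 0.22 (SE) in clone 3, and neither passed the threshold. With the array row as a term of the fit it was −0.85 in clone 1 and −0.75 in clone 3, and without control array 3 it was −0.34 in clone 1 and −0.07 in clone 3. Without control array 1 the clone 3 value was −0.40. None of these passed, and the size of the Icam1 difference therefore rested on single arrays.

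Vcam1 encodes the ligand of the integrin VLA-4. Its brighter probe had levels of −2.17, −2.13 and −2.83 in clone 1 and −2.62 and −2.36 in clone 3, against −1.42, −1.32 and −1.19 in the control. Every knock-in array lay below every control array, which makes Vcam1 the only one of the 10 genes with that order in both clones. The difference was −1.07 ± 0.19 (SE), 2.09-fold lower, in clone 1 and −1.18 ± 0.22 (SE), 2.26-fold lower, in clone 3. With the array row in the fit it was −0.86 in clone 1 and −0.87 in clone 3 and no longer passed. The other Vcam1 probe was not well above background on any array, and averaging both probes gave −0.62 in clone 1 and −0.35 in clone 3, neither past the threshold.

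Vcam1, Icam1 and Mcam are also made by blood vessel cells and fibroblasts, so markers of these were set beside them. Of 9 endothelial markers only Pecam1 was above background on every array, and Cdh5, Kdr, Tek and Vwf were above background on none. The summed linear signal of the endothelial list, in units of the 75th percentile, was 0.264 to 0.341 in clone 1 and 0.321 to 0.334 in clone 3, against 0.294 to 0.372 in the control. Of 9 fibroblast markers, Pdgfra and Col1a2 were above background on every array. The summed signal of that list was 0.474 to 0.631 in clone 1 and 0.490 to 0.564 in clone 3, against 0.969 to 1.22 in the control. The lower sum followed Pdgfra, which averaged −1.63 in clone 1 and −2.15 in clone 3, against −0.32 in the control. Col1a2 averaged −2.86 in clone 1 and −2.59 in clone 3, against −2.73 in the control, and Pdgfrb, Dcn, Lum, Thy1 and Fap were above background on no array. All samples are of the TEC71 epithelial line, and whether any such cells were present or took part in the Vcam1 difference was not tested. In such bulk RNA, fewer cells of a type and less RNA per cell cannot be told apart.

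Mcam encodes CD146, a receptor of endothelium and many other cells that also binds laminin. Its levels were 4.96, 5.10 and 5.02 in clone 1 and 4.93 and 5.16 in clone 3, against 5.25, 5.04 and 4.75 in the control. The controls spread over a wider range than either clone and enclosed both. The difference was 0.01 ± 0.15 (SE) in clone 1, with a 95% interval of −0.32 to 0.34, and 0.03 ± 0.16 (SE) in clone 3, with an interval of −0.34 to 0.40.

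Bcam encodes the Lutheran glycoprotein, a receptor of the laminin chain Lama5. Its levels were −0.37, −0.49 and −0.41 in clone 1 and −0.44 and −0.39 in clone 3, against −1.07, −0.80 and −0.60 in the control. The knock-in arrays were all above the controls, by a small margin over the highest of them. The difference was 0.40 ± 0.13 (SE), 1.32-fold, in clone 1 and 0.40 ± 0.15 (SE), 1.32-fold, in clone 3. As a description of the fit and not as a test, it passed in clone 1 only. That call was lost in 13 of 18 alternatives, among them leaving out control array 1 (0.28), control array 2 (0.41), any clone 1 array (0.37 to 0.43) or either clone 3 array (0.40). In clone 3 it passed without control array 3, at 0.51. No statement that the clones differ follows, since their difference was 0.00 with a 95% interval of −0.33 to 0.34.

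Cadm1 encodes a nectin-like molecule of epithelia, neurons and mast cells that binds itself and Crtam. Its brighter probe had levels of 0.70, 0.70 and 0.67 in clone 1 and 0.82 and 0.56 in clone 3, against −1.77, −1.62 and −1.60 in the control. All knock-in arrays lay above all controls, and the clone 1 arrays were nearly identical. The difference was 2.35 ± 0.11 (SE), 5.11-fold, in clone 1 and 2.36 ± 0.12 (SE), 5.12-fold, in clone 3. A dimmer probe, above background on all arrays, gave 2.13 ± 0.22 (SE) in clone 1 and 2.17 ± 0.24 (SE) in clone 3, so both probes ran the same way.

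Cadm4 encodes a related nectin-like molecule. Its levels were 1.55, 1.52 and 1.62 in clone 1 and 1.34 and 1.75 in clone 3, against 0.49, 0.19 and 0.38 in the control. The groups did not overlap, and the clone 3 arrays lay on either side of the clone 1 arrays. The difference was 1.21 ± 0.14 (SE), 2.32-fold, in clone 1 and 1.20 ± 0.15 (SE), 2.29-fold, in clone 3. The other members of the Cadm family, Cadm2 and Cadm3, did not pass the filter on dim probes.

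Nectin1 encodes a cell-junction molecule that binds afadin inside the cell. Its levels were 3.77, 3.70 and 3.91 in clone 1 and 3.59 and 3.82 in clone 3, against 4.07, 3.95 and 3.57 in the control. The groups overlapped. The difference was −0.07 ± 0.15 (SE) in clone 1, with a 95% interval of −0.42 to 0.28, and −0.16 ± 0.17 (SE) in clone 3, with an interval of −0.55 to 0.23.

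Nectin2 encodes a nectin that also serves as a ligand of the lymphocyte receptors Cd226 and Tigit. The brighter of its probes had levels of 5.03, 5.11 and 5.10 in clone 1 and 4.25 and 4.90 in clone 3, against 4.43, 4.08 and 4.54 in the control. Clone 1 lay above the controls, but one clone 3 array lay among the controls and the other above them. The difference was 0.73 ± 0.18 (SE), 1.66-fold, in clone 1 and 0.23 ± 0.21 (SE) in clone 3. The clone 3 value rested on single arrays, being 0.55 without clone 3 array 1, −0.09 without clone 3 array 2 and 0.09 without control array 2. It passed in clone 1, and that call was lost in 6 of 18 alternatives, among them leaving out control array 2 (0.60), clone 1 array 2 (0.72) or clone 1 array 3 (0.72). The dimmer probe, designed for another transcript, had levels of 3.71, 3.41 and 3.37 in clone 1 and 3.35 and 3.43 in clone 3, against 2.75, 2.69 and 2.96 in the control. On that probe every knock-in array was above every control array, and the difference was 0.70 ± 0.13 (SE) in clone 1 and 0.59 ± 0.15 (SE) in clone 3. The Nectin2 probes gave different sizes for clone 3, and the value of the brighter one without clone 3 array 1 lay near that of the dimmer one.

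**Figure D2:**
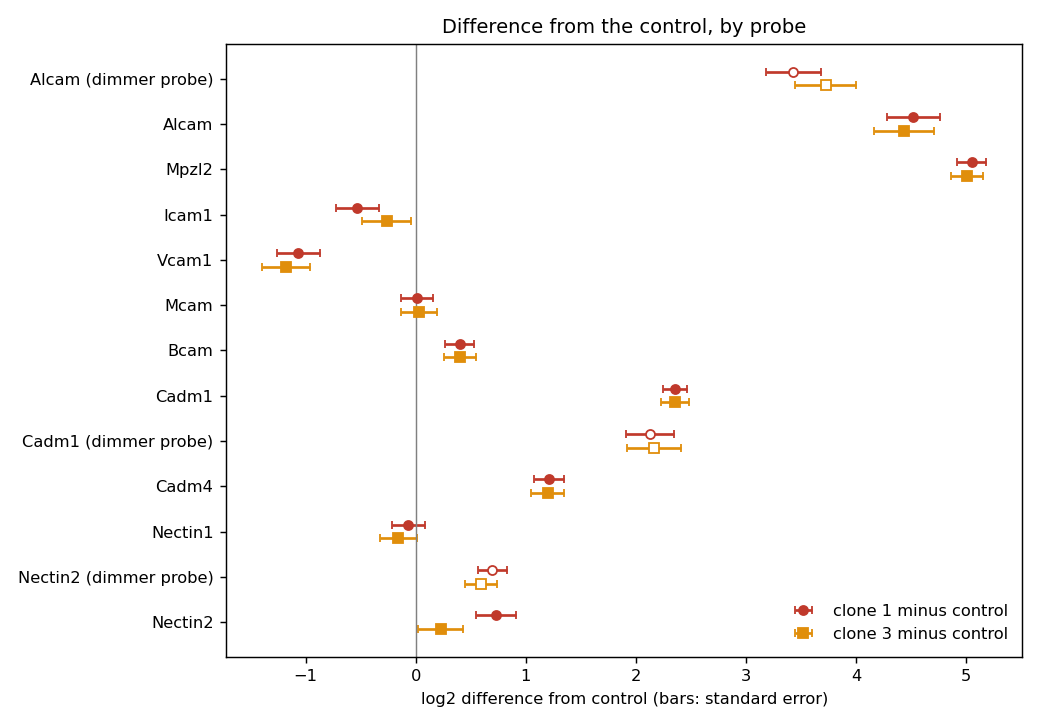
Log2 difference of each clone from the control for every tested probe of the 10 genes, with clone 1 (circles) above clone 3 (squares); bars are standard errors of the fit, and open symbols mark the dimmer probe where a gene has 2. Alcam, Mpzl2, Cadm1 and Cadm4 lie to the right of zero in both clones, Vcam1 lies to the left, and the Nectin2 probes differ in size in clone 3; the fitted value of the dimmer Alcam probe is shown although its controls are at background.

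Over the 10 genes, arrays of clone 1 and the control did not overlap for 8 (6 higher, 2 lower), beside 46.4% of all features (21.1% higher, 25.3% lower). Clone 3 and control arrays did not overlap for 6 (5 higher, 1 lower), beside 55.7% of all features (25.2% higher, 30.4% lower). All 5 knock-in arrays lay on one side of all 3 controls for 6 genes, beside 38.3% of all features (17.4% higher, 21% lower). Alcam, Mpzl2, Bcam, Cadm1 and Cadm4 were the higher ones and Vcam1 the lower one.

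The size of the difference between clone 3 and clone 1 uses no control array. Its p-value and interval use a spread estimated over all 3 groups, the control arrays included. This comparison is given as a description, because the differences of both clones from the control were known when the genes were chosen. In the limma fit 0 of the 10 genes passed the adjusted threshold and 1 reached an unadjusted p under 0.05, beside 0.0749% of all features past the adjusted threshold, and nothing is read from the count. Over all features 19 passed and 2735 reached an unadjusted p under 0.05. Nectin2 had the difference of largest size, −0.50 on its brighter probe, with a 95% interval of −0.98 to −0.03. It rested on the clone 3 arrays taken singly, being −0.18 without clone 3 array 1 and −0.83 without clone 3 array 2, and the dimmer probe gave −0.10. For the genes that stood highest above the control the intervals were −0.70 to 0.53 for Alcam, −0.38 to 0.30 for Mpzl2, −0.28 to 0.29 for Cadm1 and −0.36 to 0.34 for Cadm4. For Vcam1 the interval was −0.61 to 0.38, and for Icam1, at 0.26, it was −0.25 to 0.78. The Icam1 difference was 0.10 without clone 1 array 1. These intervals do not show that the clones were alike. Clone 3 and clone 1 arrays did not overlap for 2 genes, Icam1 being higher and Nectin2 lower in clone 3, beside 28.5% of all features (14.2% in each direction).

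Array row, as read from the titles, and group were partly mixed, because all controls were in row 1 and both clone 3 arrays in row 2. Within row 1, the single clone 1 array differed from the 3 controls by 5.10 in Mpzl2, 4.57 in Alcam, 2.37 in Cadm1 and 1.20 in Cadm4, close to the values from all arrays. This array is the one with the low spike-in signal. It alone links the rows, so the fit with row as a term gives the same clone 1 values and is no separate check. Vcam1 differed by −0.86 there, Icam1 by −0.85 and Nectin2 by 0.68. With row as a term of the fit across all arrays, 4 of the 10 genes passed in both clones (Alcam, Mpzl2, Cadm1 and Cadm4) beside 7.76% of all features, and in clone 1 alone 4 passed, against 7 without the term, beside 17.2% of all features. Within row 2, which holds 2 arrays of each clone, Nectin2 differed by −0.53 between clone 3 and clone 1.

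To place the 4 genes with the largest differences, the named genes with the most similar profile were listed, taking the root mean square difference of mean-centred log2 levels over the 8 arrays among 13566 named genes above background on every array. This is a description without a test, since any gene with a similar step between clones and control scores well. For Mpzl2 they were Aebp1 (0.164), Nt5e (0.182) and Flywch2 (0.211). For Alcam they were Fhl1 (0.227), H2bc4 (0.282) and St14 (0.316). Cadm1 was nearest to Sh3bgrl2 (0.0954), Cdc42ep3 (0.111) and Ptprz1 (0.123). Cadm4 was nearest to Pgpep1 (0.0963), Tef (0.0991) and Sec23a (0.100). Nt5e encodes the ectoenzyme CD73, which makes adenosine, and St14 encodes matriptase, a membrane protease of epithelia. Their differences from the control were 5.27 in clone 1 and 5.18 in clone 3 for Nt5e, and 4.35 in clone 1 and 4.34 in clone 3 for St14.

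Of 60 other adhesion genes of the superfamily, 32 passed the filter, and in both clones 5 were higher, 2 lower and 25 did not pass. That is 21.9% of the 32, beside 23.5% of all features, and their median difference was 0.10 in clone 1 and 0.08 in clone 3. Cxadr, the junction molecule known as the coxsackievirus and adenovirus receptor, averaged 5.10 in clone 1 and 5.14 in clone 3, against 4.08 in the control. It rose by 1.02 ± 0.11 (SE, limma adjusted p = 0.000206) in clone 1 and 1.06 ± 0.12 (SE, adjusted p = 0.000375) in clone 3. Jaml, a binding partner of Cxadr better known from leukocytes, averaged −1.65 in clone 1 and −1.76 in clone 3, against −3.07 in the control. Its rise was 1.42 ± 0.14 (SE, limma adjusted p = 0.000126) in clone 1 and 1.30 ± 0.15 (SE, adjusted p = 0.000464) in clone 3. Mpzl3, a paralogue of Mpzl2, rose by 0.67 in clone 1 and 0.94 in clone 3 (limma adjusted p = 0.00459 and 0.00168). Igsf8, a partner of tetraspanins, rose by 0.90 in clone 1 and 0.70 in clone 3 (limma adjusted p = 0.00119 and 0.00813), and its call in clone 3 was lost without clone 3 array 2 (0.69).

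Jam2, a junctional adhesion molecule of endothelium and other cells, was the lower gene with the larger change. It averaged −4.14 in clone 1, against −3.14 in the control, a fall of 1.00 (limma adjusted p = 0.0135) that no longer passed without control array 3 (−0.90). In clone 3 it was not well above background on either array, at least 3.34-fold lower than the control, a bound given without a p-value. With normexp it did not pass in clone 1 (−0.31) or in clone 3 (−0.41). Kirrel was the other lower gene and Kirrel3 the remaining higher one, both named only to complete the count. Among those that did not pass in both clones, F11r (Jam-A) differed by 0.23 in clone 1 and 0.21 in clone 3, Pvr by 0.11 in clone 1 and −0.01 in clone 3, and Bsg by 0.25 in clone 1 and 0.21 in clone 3. With array row in the fit, 2 of the 32 passed in both clones, Cxadr and Jaml, beside 7.76% of all features.

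**Figure D3:**
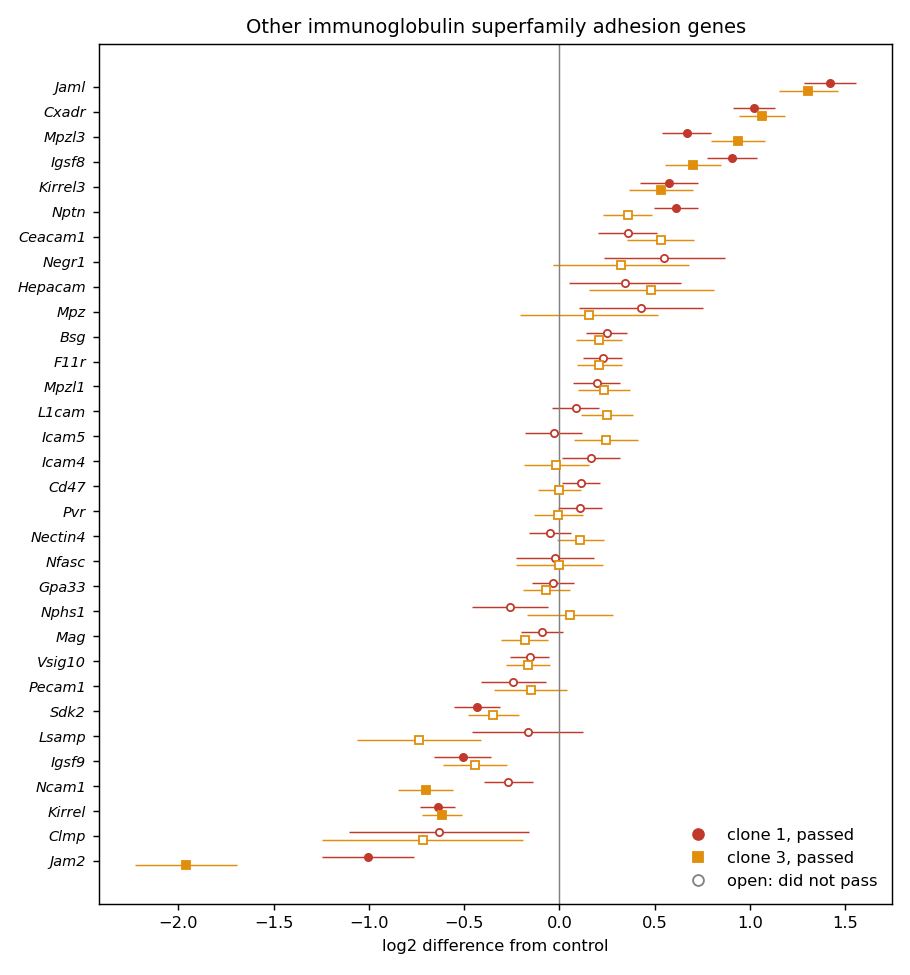
Log2 difference from the control for the 32 other immunoglobulin superfamily adhesion genes that passed the filter, clone 1 as circles and clone 3 as squares; bars are standard errors, and filled symbols passed the threshold. Most genes lie near zero, with Jaml and Cxadr highest and Jam2 lowest, its clone 3 value being a fit to arrays at background.

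Of 14 genes known to bind the 10 molecules outside the cell, 9 passed the filter, and in both clones 1 was higher, 1 lower and 7 did not pass. That is 22.2% of the 9, beside 23.5% of all features. Itgb7, an integrin chain that pairs with the alpha 4 chain to bind Vcam1, averaged 5.82 in clone 1 and 5.39 in clone 3, against 4.79 in the control. It rose by 1.03 ± 0.13 (SE, limma adjusted p = 0.000564) in clone 1 and 0.60 ± 0.15 (SE, adjusted p = 0.0157) in clone 3. The call in clone 3 was lost without control array 1 (0.53) and without either clone 3 array (0.58 and 0.62). Tigit, a lymphocyte receptor of Nectin2, fell by 0.60 in clone 1 and by 0.66 in clone 3 (limma adjusted p = 0.00386 and 0.00478). Cd6, the receptor of Alcam, differed by 0.13 in clone 1 and −0.08 in clone 3, Itgb1, the beta chain of VLA-4, by 0.08 in each clone, and Lama5, the ligand of Bcam, by 0.04 in clone 1 and 0.24 in clone 3. Itga4, the chain that completes VLA-4, did not pass the filter. With array row in the fit Itgb7 still passed in both clones, at 1.26 in clone 1 and 0.95 in clone 3. Tigit did not pass in clone 3 in that fit, at −0.69, so 1 of the 9 genes passed in both clones, beside 7.76% of all features.

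Of 24 genes of adaptor proteins that tie these molecules to the cytoskeleton, 21 passed the filter, and in both clones 7 were higher, 3 lower and 11 did not pass, which is 47.6% of the 21 beside 23.5% of all features. The median difference of the list was 0.26 in clone 1 and 0.17 in clone 3. Lmo7, a protein of epithelial junctions that binds afadin, averaged 1.82 in clone 1 and 1.71 in clone 3, against −0.25 in the control. It rose by 2.08 ± 0.11 (SE, limma adjusted p = 4.39e-06) in clone 1 and 1.96 ± 0.13 (SE, adjusted p = 1.54e-05) in clone 3. Ezr, which encodes ezrin and links Icam1 and other receptors to actin, rose by 1.61 in clone 1 and 1.66 in clone 3 (limma adjusted p = 0.000192 and 0.000372). Epb41l1, of the protein 4.1 family that binds Cadm tails, rose by 1.45 in clone 1 and 1.33 in clone 3 (limma adjusted p = 0.000111 and 0.000419). Mpp3, a scaffold that binds Cadm1, was not above background on any control array and passed the filter only through the knock-in arrays. Mpp3 was at least 1.57-fold higher in clone 1 and at least 2.82-fold higher in clone 3. No p-value is given for these bounds, and its count as higher rests on a fit to control arrays at background. With normexp background correction, which adds an offset, the fitted Mpp3 difference in clone 1 was 0.30 and did not pass. Afdn, the gene of afadin itself and chosen after its values were seen, rose by 1.18 in clone 1 and 1.02 in clone 3. Among the lower genes, Pard3 fell by 0.69 in clone 1 and by 0.48 in clone 3. Ssx2ip fell by 0.62 in clone 1 and by 0.65 in clone 3. Both were also named after their values were seen, so no p-value is given for them or for Afdn. With array row in the fit 5 of the 21 passed in both clones, namely Lmo7, Ezr, Epb41l1, Mpp3 and Afdn, all higher, beside 7.76% of all features.

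Proteases that release such molecules from the surface, and their inhibitors, were 11 genes of which 9 passed the filter. In both clones 1 was higher, 1 lower and 7 did not pass, which is 22.2% of the 9 beside 23.5% of all features. Adam8, a membrane metalloprotease, averaged 3.87 in clone 1 and 3.73 in clone 3, against 5.59 in the control. It fell by 1.72 in clone 1 and by 1.86 in clone 3 (limma adjusted p = 3.71e-05 and 5.78e-05). Timp3, an inhibitor of metalloproteases, rose by 0.65 in clone 1 and 0.62 in clone 3 (limma adjusted p = 0.00833 and 0.019). Its call in clone 3 was lost without control array 3 (0.60) or either clone 3 array (0.57 and 0.66), and with array row in the fit its difference was 0.35 in clone 1 and 0.15 in clone 3. Adam10, another protease of the list, differed by 0.13 in clone 1 and 0.07 in clone 3. Adam17 differed by −0.18 in clone 1 and −0.52 in clone 3, and it passed in clone 3 only (limma adjusted p = 0.0123). With array row in the fit Adam17 passed in neither clone, at −0.15 in clone 1 and −0.48 in clone 3.

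Cytokine, receptor and NF-kB genes linked to the induction of Icam1 and Vcam1 numbered 20, of which 17 passed the filter. The list includes the inhibitors Nfkbia and Tnfaip3, both among the lower genes, so it is not a list of inducers alone. In both clones 1 was higher, 9 lower and 7 did not pass, which is 58.8% of the 17 beside 23.5% of all features. The median difference was −0.57 in clone 1 and −0.71 in clone 3. The list was drawn up with earlier results of these data known and is not independent evidence of its direction. Il1a, the cytokine interleukin 1 alpha, was not above background on any knock-in array, against levels of 1.97, 2.11 and 1.88 in the control. Il1a passed the filter only through the control arrays. It was at least 122-fold lower in clone 1 and at least 116-fold lower in clone 3. No p-value is given for these bounds, and its count as lower rests on a fit to knock-in arrays at background. Nfkbia, the inhibitor that NF-kB itself induces, fell by 1.52 in clone 1 and by 1.47 in clone 3 (limma adjusted p = 1.32e-05 and 3.79e-05). Relb, a subunit of the noncanonical pathway, fell by 0.84 in clone 1 and by 1.03 in clone 3 (limma adjusted p = 0.00081 and 0.000578). Tnfrsf1b, a receptor of tumour necrosis factor, fell by 0.87 in clone 1 and by 0.73 in clone 3 (limma adjusted p = 0.0034 and 0.014), and its call in clone 3 was lost without clone 3 array 1 (−0.60). The higher gene was Lta, the cytokine lymphotoxin alpha, which averaged −1.88 in clone 1 and −2.29 in clone 3, against −4.03 in the control. It rose by 2.16 ± 0.19 (SE, limma adjusted p = 6.85e-05) in clone 1 and 1.74 ± 0.21 (SE, adjusted p = 0.000536) in clone 3. With array row in the fit 6 of the 17 passed in both clones, beside 7.76% of all features.

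**Figure D4:**
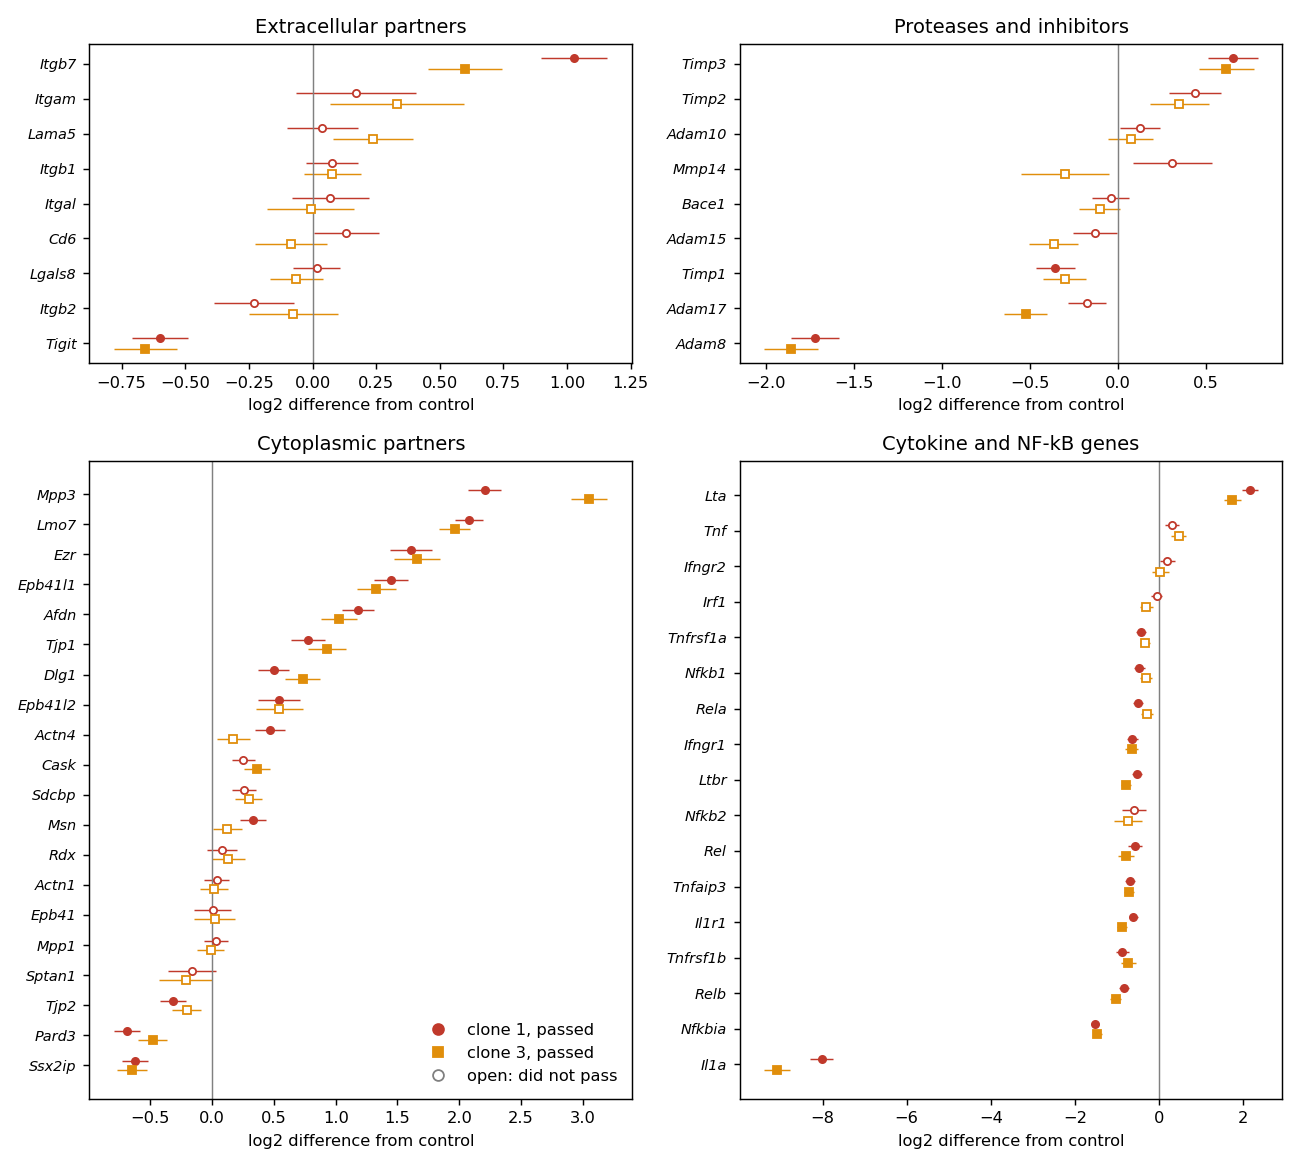
Log2 difference from the control for the reported partner genes. They bind the 10 molecules outside the cell, cut them, anchor them in the cytoplasm or belong to the cytokine and NF-kB list. Each panel has a separate horizontal range. Circles are clone 1, squares clone 3, bars are standard errors, and filled symbols passed the threshold. Lmo7 and Ezr stand to the right in both clones and Adam8 to the left; the values of Il1a and Mpp3 are fits against arrays at background.

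Between clone 3 and clone 1 none of the genes of these 5 lists passed (limma, lowest adjusted p of a list from 0.117 to 0.381), with 7 genes at an unadjusted p under 0.05.

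The 10 genes lie on 4 chromosomes, 5 of them on chromosome 9, 3 on chromosome 7 and 1 each on chromosomes 16 and 3. Their nearest tested genes in the RefSeq order, up to 2 on each side, were examined after values were seen. No limit was set on distance, so a neighbour in this order need not lie close by. Of 37 distinct neighbours 7 were higher and 6 lower in both clones, beside 11.3% higher and 12.2% lower of all features. Mpzl2 is followed by Mpzl3 and Jaml, both higher in both clones as given above, while Cd3e on its other side differed by 0.53 in clone 1 and −0.14 in clone 3 without passing. Around Vcam1, Slc30a7, a zinc transporter, fell by 1.32 in clone 1 and by 1.53 in clone 3. Extl2 and Cdc14a beside Vcam1 were lower in both clones too, and Rtca did not pass. The tested gene that follows Alcam in this order was Nfkbiz, a regulator of NF-kB target genes. Nfkbiz fell by 1.72 in clone 1 and by 1.95 in clone 3, opposite to Alcam. With array row in the fit, Slc30a7, Nfkbiz and Jaml still passed in both clones, and Extl2, Cdc14a and Mpzl3 did not. None of the 4 neighbours of Cadm1 or of Icam1 passed in both clones.

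**Figure D5:**
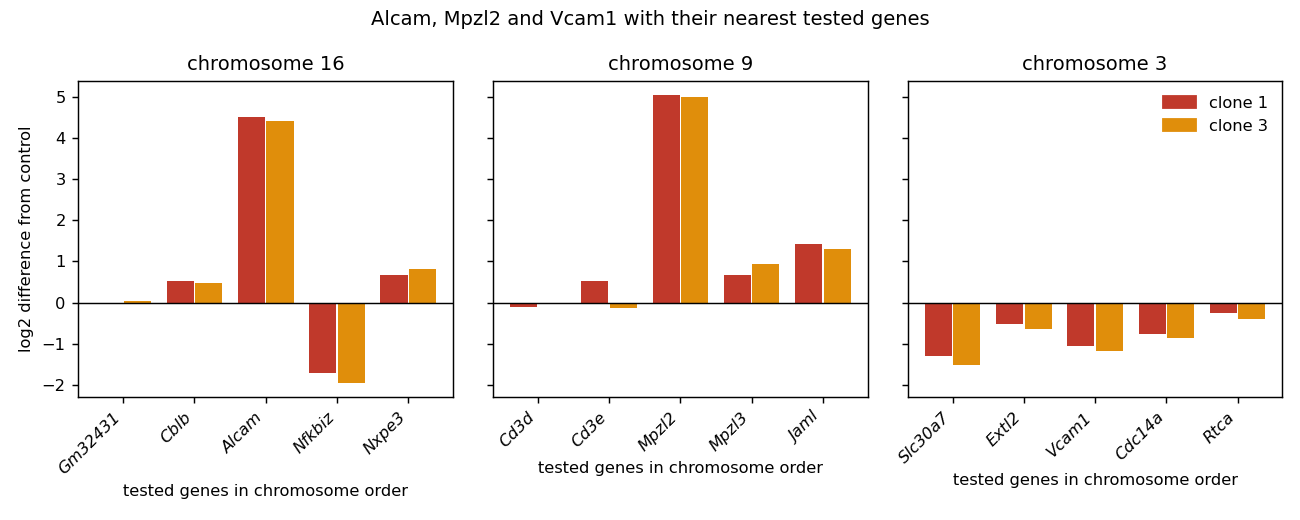
Log2 difference from the control of Alcam, Mpzl2 and Vcam1 and of their nearest tested genes in chromosome order, with evenly spaced bars for clone 1 (left of each pair) and clone 3; no error bars are drawn. Mpzl2 stands at about 5 beside Mpzl3 and Jaml at 0.67 to 1.42, and Alcam stands next to Nfkbiz, which is below zero.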

How the data were processed

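RNA of 8 TEC71 samples was hybridized to one-colour Agilent SurePrint G3 mouse arrays, per the labels. The intensity used is the deposited processed signal, linear and already background-corrected. Per the submitters' processing notes the software was Agilent Feature Extraction 11.5.11. Groups follow the genotype and titles in the labels. Non-uniform and outlier spots were dropped, between 114 and 242 on each array. After a log2 transform the array's 75th percentile over distinct probes was subtracted, and spots of a probe were averaged. Probes were named through their accession and RefSeq (GRCm38.p6), which named 32994 of 56605, and a gene with several probes took the brightest. A feature was tested where 1 or more groups had it above background throughout, 25353 in all, in 1 fit of the 3 groups with limma 3.58.1 in R 4.3.3 (two-sided, Benjamini-Hochberg, threshold 0.05). The fit had 5 residual and 3.39 prior degrees of freedom. Other probes of the genes were fitted among all 32313 probes that passed the filter. The fit was tested on simulated data.

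The 10 genes and the lists were chosen with earlier results of these data known. The adjusted p-values printed for genes of the lists are therefore descriptions and no independent support. Named are all 10, Gtf2i, up to 5 genes of each list that passed in both clones with the largest smaller difference, and the 3 nearest profiles of the 4 genes that differed most. Some genes that these rules select are not reported here. Neighbouring genes were chosen after their values were seen.

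Alternatives were normexp background correction (offset 50, on the median spot signal, since the mean is not among the columns), quantile or median scaling, dropping the filter or asking for signal on all 8 arrays, averaging a gene's probes, trend and robust estimation, array weights, array row as a term, a threshold of 0.01, and each array left out. Fits within one array row were added after seeing the data.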

Additional observations from a re-analysis of the deposited data

How the results depend on the processing

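As a description of values known when the genes were chosen, the differences of Alcam, Mpzl2, Cadm1 and Cadm4 from the control kept their sign under every alternative run. Normexp gave the smallest Alcam difference, 2.86 in clone 1 and 2.72 in clone 3. No direction of a called difference reversed. With array row in the fit, the genes passing in clone 1 numbered 4 in place of 7. In that fit the other adhesion genes passing in both clones numbered 2 in place of 7. The binding, anchoring, cutting and cytokine or NF-kB genes passing in both clones numbered 13 in place of 24. Leaving out each array in turn gave 5 to 7 genes passing in clone 1, 5 to 6 in clone 3, 5 to 6 in both and 0 to 0 between the clones. It gave 5 to 7 other adhesion genes and 18 to 24 of the others, where a lone clone 3 array was assumed to vary like the other groups. Over all features 5963 passed in both clones, 1968 with array row in the fit and 3940 without a filter. Between the clones 19 passed, against 7 without a filter, 46 with normexp, 62 with trend and robust estimation, 9 without clone 1 array 2, and 173 and 61 without clone 3 array 1 and array 2. For the differences of single genes of the 10, 515 alternative values kept their side of the threshold and direction, 23 fell short of it, 1 newly passed and 1 moved beyond the spread. For the other named genes that had passed, neighbours included, 1007 values kept side and direction and 70 fell short of the threshold. No paired analysis was possible because the replicates are numbered in accession order only and the labels give no number shared between groups. Dim probes such as the Alcam probe at background in the control give only bounds.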

Other observations

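Several genes best known from lymphocytes gave a signal in this epithelial line. Cd3e, Cd4, Cd6, Itgal and Tigit were well above background on 8 of 8 arrays, with Cd4 at levels of 0.41 to 1.14 and Cd3e at −0.14 to 1.14 over the arrays. Ptprc, the pan-leukocyte gene, and Crtam, the receptor of Cadm1, were above background on 1 of 8 arrays each. Cd8a, Cd226 and Cd96 were above background on 0 of 8. Of 9 blood cell markers 4 were above background on every array, and their list summed to 5.63 to 6.65 in clone 1 and 4.27 to 5.63 in clone 3, against 3.70 to 4.45 in the control.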
